A study of Gallus gallus with 24 samples.

Results

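The collar epithelium, the ring of growing epithelium at the base of the sickle feather, was compared with the pulp, the connective tissue core that it surrounds, in 4 adult chickens. The comparison takes 8 of the 24 libraries of the study: 4 of the collar epithelium and 4 of the pulp. Each bird gave 1 library of each tissue, and the birds were male 53, male 68, female 52 and female 120, numbered as in the labels. RNA sequencing of polyadenylated RNA was used throughout. The labels give no treatment, strain or exact age. They give the bird of every library, so the 2 tissues were compared within birds. The other 4 tissues of the same birds (lower and upper follicle sheath, papilla ectoderm and dermal papilla) serve only to place the genes found here.

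A feather grows from its base. Epithelial cells proliferate in the collar, are arranged into barb ridges as they move up, and fill with keratins and corneous beta proteins before they die. The pulp inside them carries the blood vessels and nerves, feeds the epithelium and is withdrawn as the feather matures. Signals of the Wnt, BMP, FGF and hedgehog families pass between the 2 layers in growing feathers of birds. As a tissue sample, pulp can therefore hold fibroblasts, vessel wall, blood and nerve cells together. In such bulk samples, fewer cells of a type and less RNA per cell cannot be told apart.

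Genes are given by Ensembl identifier, since the files do not pair identifiers with names and 0 of the 17108 identifiers matched the reference table. The labelled tissues were for the same reason not checked against their defining markers, and no role is given to any gene. Total counts ran from 17410206 to 30607316 over the 8 libraries. By these totals alone, 1 count was worth 0.0327 to 0.0574 CPM (the usual count scaled to a common library size). All other CPM also carry a scaling factor per library (TMM), so 1 count can fall outside this range there. Of the collar libraries, that of female 52 stood apart: its 10 most abundant genes took 13.2% of its counts, against 9.75% to 9.83% in the other 3 collar libraries and 7.89% to 9.06% in the pulp. Values without this bird are given beside the results that moved most.

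The 2 tissues differed in most of the genes tested. By edgeR's quasi-likelihood test with the bird as a block, 3640 genes were higher in the collar epithelium and 4173 were higher in the pulp, together 60.2% of the 12969 genes tested (adjusted p under 0.05). The collar-higher genes were 28.1% of the genes tested and the pulp-higher genes 32.2%. Among the 7813 called genes, 7676 changed in the same direction in all 4 birds, which 70.1% of all genes tested did. In 6936 of them the 4 libraries of one tissue lay wholly above the 4 of the other, a separation that 57.3% of all genes tested showed. The number of genes detected was also compared. At least 1 CPM was reached by 11266.5 ± 94.4 genes in the collar and by 12087.5 ± 90.3 in the pulp (SD, n = 4). The pulp had more in each of the 4 birds (exact paired permutation test, two-sided p = 0.125, the smallest that 4 pairs allow).

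**Figure D1:**
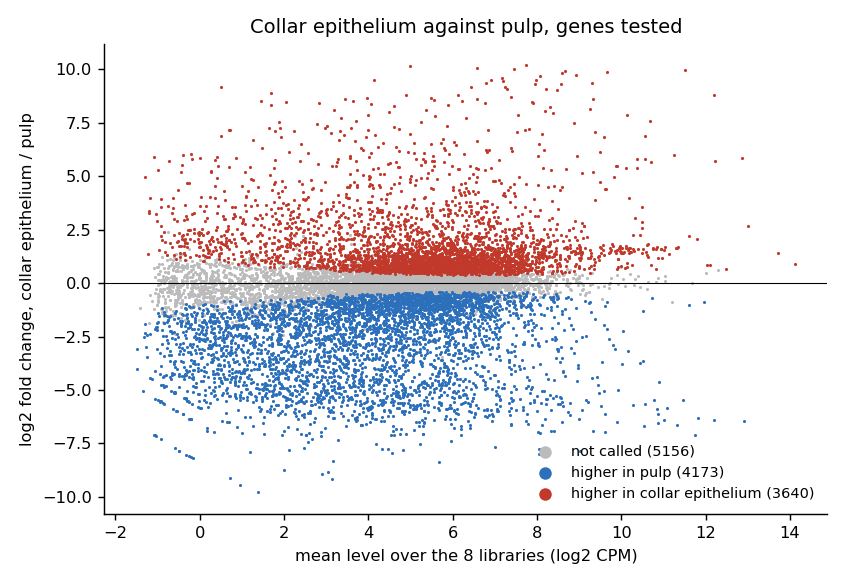
Log2 fold change of the collar epithelium over the pulp (vertical axis) against the mean level over the 8 libraries in log2 CPM (horizontal axis), 1 point per gene tested. The 4173 pulp-higher genes (blue) reach farther down at low levels, and the 3640 collar-higher genes (red) are most numerous at high levels.

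The pulp-higher genes differed by more. Their median log2 fold change, collar over pulp, was -2.24, a 4.72-fold difference. That of the collar-higher genes was 1.21, a 2.31-fold difference, and the median over all genes tested was -0.07. Setting the 14 pulp-higher genes and the 1 collar-higher gene with no count in the other tissue to their bound (3 counts over its 4 libraries) left both medians at these values. Such genes are too few to move either median by much. Against a threshold of 2-fold (edgeR's glmTreat, adjusted p under 0.05), 1443 genes were higher in the collar and 2613 in the pulp, together 31.3% of those tested. Fitted differences over 16-fold were found for 327 collar-higher and 1101 pulp-higher genes. Over 256-fold there were 53 collar-higher and 13 pulp-higher genes. This last order was not the same in both sexes: 58 and 87 genes passed it in males, against 59 and 21 in females. With 2 libraries per sex and tissue, folds of this size can rest on 0 counts in the lower tissue, where the fitted value is no bound. How many of these genes do so was not examined.

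The direction of the calls went with the level of the gene. Among the 3243 genes with the lowest mean levels (up to 8.15 CPM), 523 were higher in the collar and 1405 in the pulp. Among the 3242 with the highest (67.6 CPM and more), 1382 were higher in the collar and 761 in the pulp. Both orders were the same with each of the other scalings, tools and bird sets tried. With library totals alone as the scaling they stood at 421 against 1521 and at 1122 against 917. That scaling moved the median log2 fold change of all genes from -0.07 to -0.30, and small differences are to be read relative to this shift.

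The called genes made up different parts of the RNA in the 2 tissues. Collar-higher genes took 60.9% to 71.9% of the counts in the collar libraries and at most 25.9% in the pulp libraries. Pulp-higher genes took 43.7% to 45.5% of the counts in the pulp and 6.14% to 9.23% in the collar. These shares describe the contrast that chose the genes and are no further test of it.

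The largest fitted differences among genes with at least 10 CPM in the higher tissue exceeded 256-fold in both directions. ENSGALG00000024138.2 stood at 168 and 762 CPM in the collar of males 53 and 68, and at 394 and 391 CPM in that of females 52 and 120. In the pulp it stood at 0.262 and 0.402 CPM in the males and at 0.404 and 0.306 CPM in the females. Within a bird the collar was at least 641 times the pulp, and the collar libraries differed more among themselves than the pulp libraries did. The log2 fold change was 10.18 ± 0.33 (SE, adjusted p = 2.51e-05).

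ENSGALG00000018878.2 had 9.06 and 127 CPM in the collar of the males and 34.2 and 82.8 CPM in that of the females, against a total of 6 counts in the 4 pulp libraries. The collar level ranged widely between birds, but no collar library came near the pulp. Its log2 fold change was 10.13 ± 0.44 (SE, adjusted p = 2.57e-05), and 9.34 without male 68.

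On the pulp side, ENSGALG00000004393.4 was read at 24.6 and 21.7 CPM in the pulp of the males and at 10.9 and 11.4 CPM in that of the females. In the collar it had 2 counts over all 4 libraries, against 1906 in the pulp. The ratio of pulp to collar was 679 (exact 95% interval 188 to 5612, counting error only), with an adjusted p of 2.89e-05. The fitted log2 fold change was -9.16 ± 0.50 (SE), and -9.76 without female 120. ENSGALG00000028055.1 had the opposite order between the sexes, at 9.41 and 11.1 CPM in the male pulp and 19.0 and 19.1 CPM in the female pulp. Its 2 collar counts both came from female 52, against 1669 counts in the pulp, a ratio of 595 (exact 95% interval 164 to 4915, counting error only; adjusted p = 5.20e-05). Without female 52 the collar had 0 counts, and the fitted log2 fold change moved from -8.94 to -11.43, a value that is no bound.

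Complete absence from one tissue was limited to genes of low level. With no count in any pulp library, 215 genes had counts in the collar, of which 0 reached a mean of 10 CPM. With no count in any collar library, 769 genes had counts in the pulp, and again 0 reached 10 CPM. The highest means among them were 2.72 CPM in the collar and 4.89 CPM in the pulp. In every bird the pulp library held more counts than the collar library, as with 20609220 against 17410206 in male 53. The 215 and 769 genes were therefore not counted at equal depth.

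Some of the most abundant genes were so in both tissues. ENSGALG00000018373.1 had the highest mean CPM of the collar and the second highest of the pulp. It stood at 17511 and 19150 CPM in the collar of males 53 and 68 and at 36974.5 and 19829 CPM in that of females 52 and 120. The pulp held 10985 and 12178 CPM in the males and 12575 and 12379 CPM in the females. The groups did not overlap, but female 52 was far above the other collar libraries. The log2 fold change of 0.89 ± 0.28 (SE) had an adjusted p of 0.0295. Without female 52 it was 0.61 (adjusted p = 0.0216). The adjusted p was 0.0844 without male 53, 0.128 without male 68 and 0.0795 without female 120.

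ENSGALG00000015917.4, second in the collar, followed the same pattern. It stood at 14727 and 16231 CPM in the male collars, at 30636 and 17883 CPM in the female collars, and between 6851 and 7834 CPM in the pulp (log2 fold change 1.41 ± 0.26 SE, adjusted p = 0.00344). The most abundant gene of the pulp, ENSGALG00000009641.4, stood far lower in the collar. It was read at 14486 and 13198 CPM in the male pulp and at 16297 and 16657 CPM in the female pulp. The collar held 104 and 92.6 CPM in the males and 214 and 452 CPM in the females, and the log2 fold change was -6.44 ± 0.47 (SE, adjusted p = 6.33e-05).

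**Figure D2:**
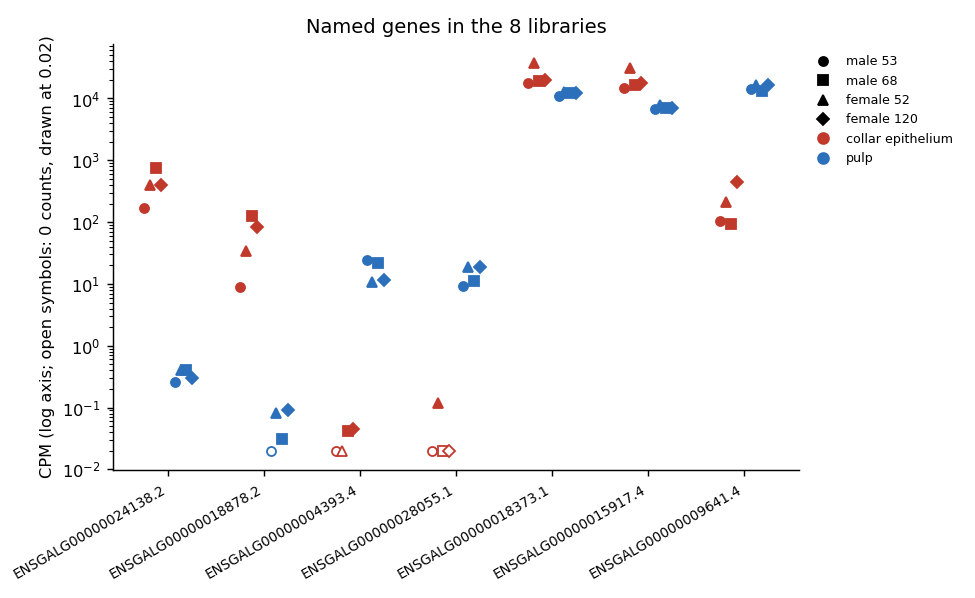
Level in CPM (log axis) of the 7 genes named in the comparison of the tissues, 1 point per library, with the collar epithelium in red, the pulp in blue and a symbol for each bird. For every gene the 4 collar libraries and the 4 pulp libraries do not overlap. The rule required this of the genes named for the largest fold changes, and 57.3% of all genes tested showed it. Open symbols mark libraries with 0 counts.

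Collar libraries varied more between birds than pulp libraries. The median SD of a gene over the 4 birds was 0.34 in the collar and 0.20 in the pulp on the log2(CPM + 1) scale, and the collar had the larger SD for 71.5% of the genes tested. The collar library of female 52 lay a median of 0.31 from the median of the 4, against 0.11 to 0.22 for the other 3. Without her the medians were 0.23 and 0.19, and the collar had the larger SD for 58.8% of genes.

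The tissue difference was alike in males and females over most genes. From a model with a tissue difference for each sex, 6251 genes were called in males (48.2% of those tested) and 7599 in females (58.6%). The lists shared 5457 genes, which is 87.3% of the male and 71.8% of the female list, and 5438 of these had the same direction. Over all genes tested, 83.6% had the same direction in both sexes. Across genes, the log2 fold changes of the 2 sexes, which share no library, had a Pearson correlation of 0.914 over 12969 genes. Genes are not independent replicates, and no test is attached to this value.

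**Figure D3:**
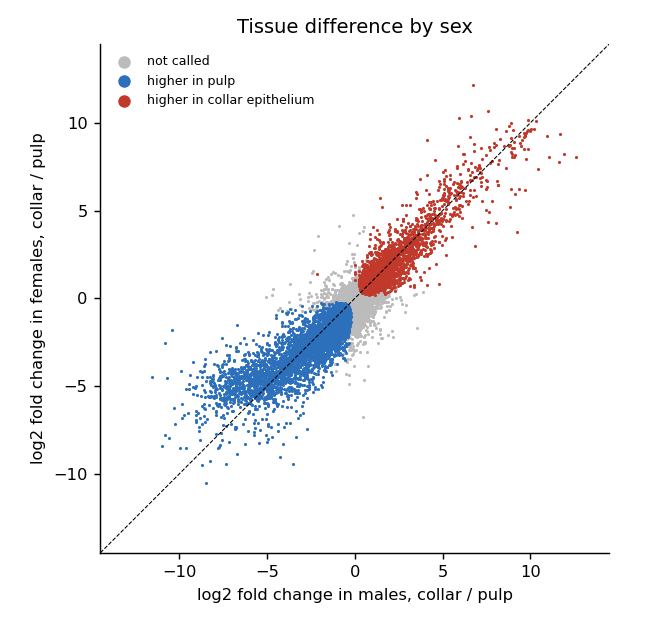
Log2 fold change of the collar epithelium over the pulp in the 2 females (vertical axis) against that in the 2 males (horizontal axis), 1 point per gene tested, coloured by the call over all 4 birds. Points lie along the diagonal (Pearson correlation 0.914), except that many strongly pulp-higher genes (blue) reach lower values in males than in females.

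Whether the difference itself depended on sex was tested gene by gene with an interaction term. By edgeR 0 genes passed (0.00% of those tested), and the smallest adjusted p was 0.0673. Before adjustment, p was under 0.05 for 1797 genes, or 13.9%. limma voom also called 0 genes, whereas DESeq2 called 137 genes as more positive and 373 as more negative in males. Calls by edgeR appeared without male 53 or male 68 and did not appear without either female. Each of these fits had 1 residual degree of freedom and only 1 bird of the sex left out. Their calls, or the lack of them, therefore carry little weight. With RLE scaling edgeR called 27 and 126 genes, and with no filter on low counts 37 and 115.

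The 4 genes with the smallest unadjusted p fell into 2 kinds. For ENSGALG00000026373.1 the sexes differed in the collar, at 0.404 and 0.676 CPM in the males and 6.36 and 8.16 CPM in the females. Its pulp levels overlapped between the sexes, at 66.4 and 105 CPM in males and 70.9 and 66.6 CPM in females. The log2 fold change, collar over pulp, was -7.29 ± 0.32 in males and -3.25 ± 0.25 in females (SE; unadjusted p of the difference 1.12e-05, adjusted p = 0.0673). ENSGALG00000016375.5 had the same pattern, with 1.33 and 4.10 CPM in the male collars and 28.2 and 26.3 CPM in the female collars, against 368 to 578 CPM in the pulp of all 4 birds.

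For the other 2 genes the sexes differed in the pulp, though for the second of them not only there. ENSGALG00000027739.1 stood at 1.79 and 1.64 CPM in the male pulp and at 45.2 and 60.3 CPM in the female pulp, with 1.25 to 3.21 CPM in the 4 collars. The pulp-higher pattern of this gene was thus seen in females, with a log2 fold change of -4.65 ± 0.36 (SE), while that of males was 0.53 ± 0.34. ENSGALG00000002081.4 stood at 21.0 and 11.6 CPM in the male pulp and at 54.5 and 84.2 CPM in the female pulp. Its collar levels had the opposite order, at 9.93 to 16.8 CPM in males and 5.65 to 6.82 CPM in females. Both females stood above both males in each of the other 4 tissues as well. In the dermal papilla, scaled over all 24 libraries, these were 30.9 and 44.8 CPM against 23.0 and 25.3 CPM. The adjusted p of the sex difference of the contrast was 0.0673 for both genes. All 4 genes passed with RLE scaling (adjusted p 0.0150 to 0.0206), with no filter (0.0138 to 0.0173) and by DESeq2 (at most 6.48e-09). None passed with library totals alone (0.224), by limma voom (0.0711) or without the bird as a block (0.0594 to 0.0778). With all 24 libraries ENSGALG00000027739.1 alone passed (0.0283). The adjusted p there was 0.0542 for ENSGALG00000002081.4, 0.159 for ENSGALG00000026373.1 and 0.203 for ENSGALG00000016375.5.

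Strongly pulp-higher genes leaned the same way as the first kind. Over 64-fold, 450 genes were called pulp-higher in males and 135 in females, while 128 and 150 were called collar-higher. Folds of this size within a sex can also rest on very few counts in the lower tissue. Among the 1101 genes over 16-fold higher in the pulp, the median log2 difference between the sexes (male minus female fold change) was -0.91, against 0.04 over all genes tested. It was 0.11 over all 4173 pulp-higher genes, of the opposite sign, and -0.07 over the 327 genes over 16-fold higher in the collar. For the 1101 genes, the collar level in males was a median of 0.496 times that in females (1008 genes with counts in both). In the pulp it was 0.819 times. Over all genes tested these ratios were 1.01 and 0.981.

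Genes far higher in the pulp than in the collar, chosen in one sex and read in the other, showed the same order. The choice used these 2 tissues alone, so the genes need not be low in the other tissues of the follicle. In the females, 234 genes had at least 50 CPM in the pulp and at least 20 times their collar level. Their summed level in the collar was 1.20% of that bird's pulp level in male 53 and 1.18% in male 68. In the females, where the choice itself held it low, it was 1.93% in female 52 and 3.06% in female 120. The 290 genes chosen the same way in males stood at 2.62% and 3.87% in the collars of females 52 and 120. In males 53 and 68, where the choice held them low, they stood at 1.22% and 1.31%. The order in this second set is therefore partly set by the choice. By the set chosen in females, the level of such genes in the collar, as a share of the pulp level, went with sex in these 4 birds. With 2 birds of each sex, sex and a difference in dissection between birds cannot be told apart, either in these shares or in the collar levels of the genes above. The part of these shares in the sex differences of the contrast was not tested.

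Genes far higher in the collar than in the pulp were chosen by the same thresholds and read in the pulp. The 136 genes chosen in females stood at 1.81% and 1.66% of their summed collar level in the pulp of males 53 and 68. In the females, where the choice itself held them low, they stood at 0.93% (female 52) and 1.59% (female 120), both below the males. That order is therefore partly set by the choice. The 113 genes chosen in males stood at 0.939% and 1.76% in the pulp of females 52 and 120. These lay on either side of the males (1.59% and 1.61%), where the choice held them low.

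The genes of the 2 sides were placed differently among the 6 tissues of the follicle. For these values CPM were scaled over all 24 libraries. Of the 955 genes called and over 4-fold higher in the collar than in the pulp, 774 (81.0%) had their highest mean level in the collar and 120 in the upper follicle sheath. Of the 12969 genes tested, 31.4% had their highest mean in the collar and 13.4% in the upper sheath. The 120 genes, 12.6% of the 955, were thus near the upper sheath share of all genes. Choosing the 955 genes on collar against pulp itself raises the collar share, so these shares are only a description. Library by library, the median level of the 955 genes was 24.7% to 27.8% of the collar mean in the upper sheath. In the papilla ectoderm it was 11.3% to 15.0%. In the lower sheath it was 5.79% to 6.83% in 3 birds and 22.4% in female 52. In the dermal papilla it was 4.93% to 6.34% in 3 birds and 14.8% in female 52.

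Pulp-higher genes had considerable levels in most non-collar libraries. Of the 2298 genes over 4-fold higher in the pulp than in the collar, 1074 (46.7%) had their highest mean in the pulp, 514 in the dermal papilla, 445 in the lower sheath and 188 in the upper sheath. Over all genes tested the shares with their highest mean in these 4 tissues were 15.5%, 14.8%, 9.69% and 13.4%. Choosing the 2298 genes on collar against pulp keeps the collar from being their highest tissue and raises the pulp share. These shares are thus only a description. The median level of the 2298 genes was 68.6% to 79.6% of the pulp mean in the dermal papilla. It was 60.7% to 76.3% in the lower sheath and 52.6% to 60.9% in the upper sheath. In the papilla ectoderm it was 49.2% to 60.1% in 3 birds and 11.7% in male 53.

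**Figure D4:**
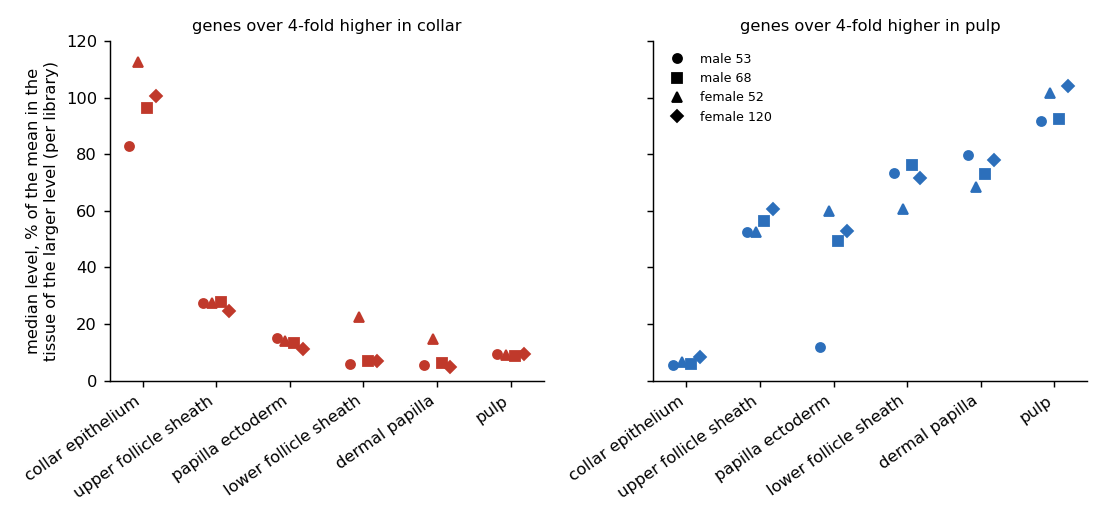
Median level of the 955 genes over 4-fold higher in the collar (left) and of the 2298 genes over 4-fold higher in the pulp (right) in each of the 24 libraries, as a percentage of the mean in the collar or the pulp (vertical axis), by tissue and with a symbol for each bird. The left set drops outside the collar, while the right set stays at 49.2% or more everywhere but in the collar libraries and the papilla ectoderm of male 53.

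Not all of the named genes followed the pattern of their side. ENSGALG00000024138.2 averaged 407 CPM in the collar and 0.308 to 4.07 CPM in the other 5 tissues on this scale. Its lower sheath and dermal papilla means came mostly from female 52. She stood at 12.7 CPM in the lower sheath, against 0.931 to 1.64 CPM in the other birds. In the dermal papilla she stood at 7.02 CPM, against 0.110 to 0.217 CPM. ENSGALG00000018373.1, with 22392 ± 9989 CPM in the collar, was higher in the papilla ectoderm (124006 ± 58293 CPM) and in the lower sheath (31908 ± 6591 CPM, SD, n = 4). ENSGALG00000004393.4, with 15.4 ± 6.44 CPM in the pulp, was higher in the dermal papilla (173 ± 49.2 CPM, SD, n = 4). It was also higher in the lower sheath (54.6 ± 20.3 CPM) and the upper sheath (52.7 ± 39.8 CPM). Its mean in the papilla ectoderm was above the pulp too, at 35.1 ± 38.7 CPM, with a range of 0.432 to 77.2 CPM. The pulp-higher gene ENSGALG00000028055.1 had its highest level in the pulp, with a mean of 13.1 ± 4.51 CPM for pulp, 3.23 ± 2.65 CPM for papilla ectoderm and 0.583 ± 0.0908 CPM for dermal papilla (SD, n = 4). It had 0 counts in all 8 sheath libraries, which allows a level of up to 0.0153 CPM over them (counting error only).

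The follicle holds a second pair of epithelium and connective tissue, the papilla ectoderm and the dermal papilla, from the same birds but with no library in common. Papilla ectoderm was higher for 1334 genes (10.5% of the 12751 tested) and dermal papilla for 1472 (11.5%), together 22.0%. With library totals alone as the scaling the split was 745 and 2238. Without some of the birds these calls were lost: edgeR called 0 genes without male 68 (3626 at an unadjusted p under 0.05) and 0 without female 120 (3176). Without male 53, whose papilla ectoderm library stood apart, it called 1364 and 1786. Of the 3394 collar-higher genes tested in both pairs, 640 (18.9%) were higher in the papilla ectoderm, against 10.5% of all genes, and 195 were higher in the dermal papilla. The 640 were 48.7% of the papilla ectoderm list. Of the 4048 pulp-higher genes, 809 (19.99%) were higher in the dermal papilla, against 11.3% of all genes, and 165 in the papilla ectoderm. The 809 were 57.3% of the dermal papilla list.

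The sizes of the 2 differences were often unlike. Collar-higher genes had a median log2 fold change, papilla ectoderm over dermal papilla, of 0.33, and pulp-higher genes of -0.57, against -0.03 over all 12477 genes. Across these genes the correlation of the 2 fold changes was 0.452, given as a description. A test of the difference between the 2 contrasts, over the 16 libraries, called 2595 genes as more positive in collar against pulp and 3176 as more negative, 42.9% of the 13448 genes tested. Without male 68 the counts were 1712 and 2118, and without female 120 they were 1401 and 1909. Genes called in collar against pulp were chosen on the same 8 libraries that enter this test, which largely sets the direction of their difference, so their counts are only a description. Over the 12477 genes, 19.3% were more positive and 23.8% more negative. Of the 3394 collar-higher genes, 1805 were more positive in collar against pulp than in the papilla pair, and 54 more negative. Of the 4048 pulp-higher genes, 2403 were more negative and 55 more positive. The papilla ectoderm libraries were themselves unlike in genes over 4-fold higher in the pulp than in the collar. The median level of these genes was 11.7% of the pulp mean in male 53 and 49.2% to 60.1% in the other birds. The part of dissection in the difference between the contrasts was not tested.

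**Figure D5:**
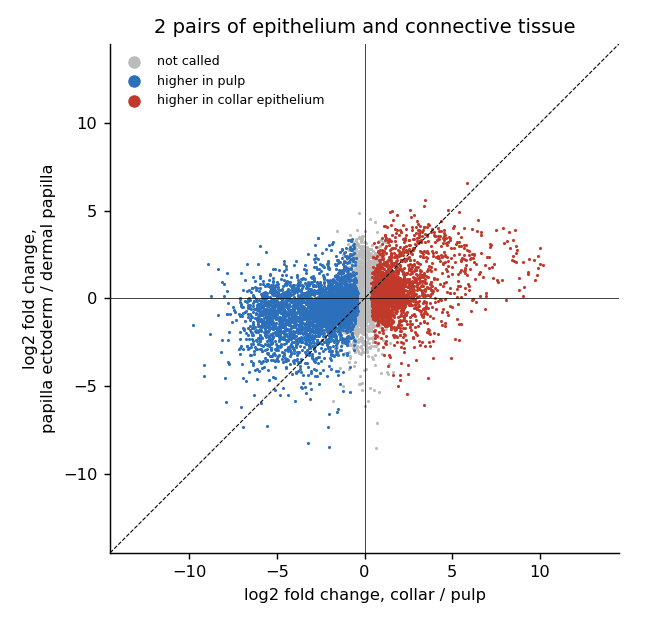
Log2 fold change of the papilla ectoderm over the dermal papilla (vertical axis) against that of the collar epithelium over the pulp (horizontal axis), 1 point per gene tested in both, coloured by the call in collar against pulp. The cloud is wider along the horizontal than along the vertical axis, and red points lie on both sides of 0 on the vertical axis.

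Both genes with the smallest p in this test ran in opposite directions in the 2 pairs. With CPM scaled over all 24 libraries, ENSGALG00000027357.1 stood at 52.5 and 65.4 CPM in the collar of the males. It stood at 47.8 and 41.7 CPM in that of the females, against a pulp range of 3.16 to 5.05 CPM. Its papilla ectoderm range, 1.52 to 3.57 CPM, lay below that of the dermal papilla, 32.1 to 73.7 CPM. It was thus high in one epithelium and low in the other. The log2 fold change was 3.60 ± 0.27 in collar against pulp and -4.55 ± 0.33 in papilla ectoderm against dermal papilla, and their difference was 8.18 ± 0.42 (SE, adjusted p = 8.29e-07). It was also high in both sheaths, at 129 ± 66.7 CPM in the lower and 65.2 ± 9.83 CPM in the upper (SD, n = 4).

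On the same scale of all 24 libraries, ENSGALG00000007912.4 stood at 71.2 to 90.0 CPM in the collar and 5.19 to 6.75 CPM in pulp libraries. It stood at 2.45 to 5.89 CPM in the papilla ectoderm and 12.3 to 22.2 CPM in the dermal papilla. Its log2 fold changes were 3.74 ± 0.17 and -2.05 ± 0.20, and they differed by 5.84 ± 0.30 (SE, adjusted p = 8.29e-07). In neither gene did any library of one tissue reach the range of its partner tissue.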

How the data were processed

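RNA-seq counts of 24 chicken libraries were used. The authors deposited raw whole-number counts per Ensembl gene, per the file headers and values. The submitters' processing notes name STAR 2.4.1d, HTSeq 0.6.0, edgeR and the build galGal4. Those sources state neither annotation release nor strand setting, so overlapping, antisense and near-identical genes are uncertain.

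Counts were tested in R 4.3.3 with edgeR 4.0.16 (TMM, filterByExpr with a minimum count of 10, glmQLFit, glmQLFTest, glmTreat; Benjamini-Hochberg threshold 0.05), and the fits were tested on simulated data. The filter left out 4139 genes with 0.0543% of the counts. The fit had 3 residual degrees of freedom, and the sex term left 2. The bird pairs the tissues, per the labels. Deviations of a bird's 2 libraries from the tissue means correlated at 0.27 to 0.41 in the 4 birds. Collar and pulp of different birds correlated at 0.12 to 0.26 within a sex and at -0.35 to -0.12 between the sexes. These values therefore also went with sex. Deviations from a tissue mean sum to 0 over the 4 birds, so positive values for some pairs force negative ones for others. The negative sign between the sexes is thus no result of its own. SEs of log2 fold changes come from the F statistic. CPM use TMM factors of the 8 libraries unless stated otherwise. Alternatives were the fit without the block, RLE scaling, library totals, no filter, DESeq2 1.42.0, limma 3.58.1 (voom), all 24 libraries, and each bird left out. Within the collar and within the pulp, libraries differed far beyond sampling noise (median chi-square per gene 4.56 to 37.7, against 0.455). None of these 8 libraries was thus a copy of another of its tissue. Other pairs of libraries were not compared in this way.

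The comparison, the lists and the rules were chosen with earlier results of these data known. Genes were named by rule: the 2 largest fold changes in each direction among called genes whose groups do not overlap, with at least 10 CPM in the higher tissue; the 2 most abundant genes of each tissue; and the 4 smallest p of the sex term and of the difference between contrasts, at most 2 in each direction. The 22 gene lists and the cell type markers needed gene names and were not used. Sets of genes at least 20 times higher in one of these tissues than in the other, fold bins and level classes were defined after the data were seen.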

Additional observations from a re-analysis of the deposited data

Results flagged for a closer look

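In 5 of the 30 sets of 4 libraries examined, the highest library lay farther from the other 3 than a Dixon test at 95% allows. Chance flags about 1 in 20 independent sets. These sets read the same libraries repeatedly and are not independent, so the 5 flags cannot be weighed against that rate. Female 52 was the highest in 4 of the 5 flagged sets, which are therefore not separate findings about her. In her collar library the 10 most abundant genes took 13.2% of the counts, ENSGALG00000018373.1 stood at 36974.5 CPM, and ENSGALG00000028055.1 had 0.119 CPM (2 counts, against 0 in the other 3). With the other 3 at 0, any count at all is flagged, so this last flag carries no weight. In her pulp library ENSGALG00000015917.4 stood at 7834 CPM. In the pulp of male 68, ENSGALG00000026373.1 stood at 105 CPM.

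The difference between collar and pulp was not that between papilla ectoderm and dermal papilla for many genes: by edgeR's test of the difference, 2595 genes were more positive and 3176 more negative in collar against pulp. ENSGALG00000027357.1 (difference 8.18 on the log2 scale) and ENSGALG00000007912.4 (5.84) had the smallest p. The part that dissection of the papilla ectoderm had in these counts was not tested.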

How the results depend on the processing

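The counts of collar-higher and pulp-higher genes stayed within 1.5 times of 3640 and 4173, and those beyond 2-fold within 1.5 times of 1443 and 2613, under every alternative run. Without the replicate block the first pair was 3679 and 4072, and the block changed no call of a named gene and no other count by over 1.5 times. With a bird left out it ran from 2671 to 3571 and from 3410 to 4271. It was 2809 and 4778 with library totals alone, and 4507 and 4559 with all 24 libraries. How far pulp-higher genes outnumbered collar-higher genes therefore depended on the setting. The sex term, at 0 and 0, gave 27 and 126 genes with RLE scaling, 37 and 115 with no filter, 137 and 373 by DESeq2, 4 and 2 with all 24 libraries, and 0 to 154 and 0 to 316 with a bird left out. For papilla ectoderm and dermal papilla, library totals gave 745 and 2238, DESeq2 2279 and 2475, all 24 libraries 2795 and 2869, and leaving out a bird 0 to 1364 and 0 to 1786. For the difference between the contrasts, leaving out a bird gave 1401 to 2832 and 1909 to 3334. The causes were not tested. No named gene changed direction. At these depths 3 counts, the limit that 0 allows, are a low level, so that the faintest genes limit only the largest ratios. The sex term rests on 2 birds per sex. The change in spread without female 52 was examined after the data were seen.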
